A study of Homo sapiens with 4 samples.

Results

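The mRNAs of 60 ribosome biogenesis factors were examined in RNA recovered with SIRT7 and in total RNA of the same cells. The genes were chosen by name, as processome proteins, small nucleolar ribonucleoprotein (snoRNP) proteins and factors of 40S and 60S maturation, and all 60 had a row among the 23615 genes of the deposited table. One group was SIRT7 RIP (2 libraries), RNA that came down on an anti-Flag gel from HEK 293T cells with a stably expressed Flag-SIRT7 construct. It was set against input (2 libraries), total RNA of that same Flag-SIRT7 line. HEK 293T is a transformed human embryonic kidney line, and RNA immunoprecipitation (RIP) recovers a protein together with the RNA held by it. Both groups carry the transgene, were kept for 10 to 15 passages and were depleted of ribosomal RNA before strand-specific libraries were made. No pull-down from cells without the tag was analysed here, and RNA that sticks to the gel without SIRT7 cannot be told apart in the RIP libraries. Whether the libraries of a group stem from separate cultures is not in the labels. The p-values therefore measure only the spread between these libraries, and that spread may be technical.

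Ribosomes are built in the nucleolus, where RNA polymerase I makes a long precursor that is modified, folded and cut into the rRNAs. The snoRNPs guide the modification, the small subunit processome assembles on the first part of the precursor, and further factors carry the 40S and 60S particles to the cytoplasm. SIRT7 is a lysine deacylase of the nucleolus and nucleus that is known for its link to rRNA transcription. The values here are levels of the mRNAs that code for the factors, not of the rRNA or of the proteins.

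The RIP libraries held 25655455 and 25998032 fragments on genes, and the input libraries 18131602 and 17310753. SIRT7 mRNA, which checks the labels, had 43950 and 43200 CPM in RIP against 1148 and 1181 CPM in input (CPM, fragments scaled to the library size and to edgeR's TMM factors, its trimmed-mean scaling). Of 7 markers of the line 6 reached a mean of 1 FPKM in input and PAX2 did not. The 8 markers of other cell types summed to 0.447 and 0.417 FPKM in RIP and 0.39 and 0.241 FPKM in input, with CD3E, HBB and INS at 0 in all 4 libraries. All tests below are edgeR's quasi-likelihood test of RIP over input over 14555 genes, with Benjamini-Hochberg adjustment at 0.05.

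All 60 members passed the count filter. The lowest-counted member entry was GAR1 in the first input library, with 432 fragments. Every fold change is set by the TMM scaling, and under it the median tested gene stood at -0.03 (log2). With library totals only, the median gene moved to -0.76 and every member moved down with it.

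The factor mRNAs went both ways, and more of them were higher than lower in RIP. Of 60 members 40 rose and 13 fell, and 7 passed neither side. Over all tested genes 77.7% were called, 38.0% as higher and 39.7% as lower. With library totals 15 members were higher and 29 lower, beside 17.0% and 65.5% of all tested genes. The median member had a log2 fold change of 0.60, and the range ran from 2.13 for NHP2 to -1.95 for MDN1. An at least 2-fold rise was found for 11 members and an at least 2-fold fall for 4, beside 17.5% and 19.1% of all tested genes. The RIP and input libraries did not overlap for 59 of 60 members, and the exception was WDR12. This is beside 89.2% of all tested genes without overlap, so a lack of overlap was the usual case in these libraries.

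As a share of all fragments, the members did not gain. Their summed share was 0.752% and 0.743% in the RIP libraries, and 0.879% and 0.858% in the input libraries. On the TMM scale their summed level was 9689 and 9583 CPM in RIP and 6778 and 6713 CPM in input. Over all genes, the shortest of 4 length classes (defined further on) held 53.4% of the fragments in each RIP library, against 28% and 29.7% in input. This class includes SIRT7 itself, with 875555 and 871168 fragments in RIP and 27016 and 26126 in input. Replicate libraries lay close together: the largest ratio between the 2 RIP libraries over the members was 1.11 (FTSJ3), and between the 2 input libraries it was 1.26 (MDN1).

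**Figure D1:**
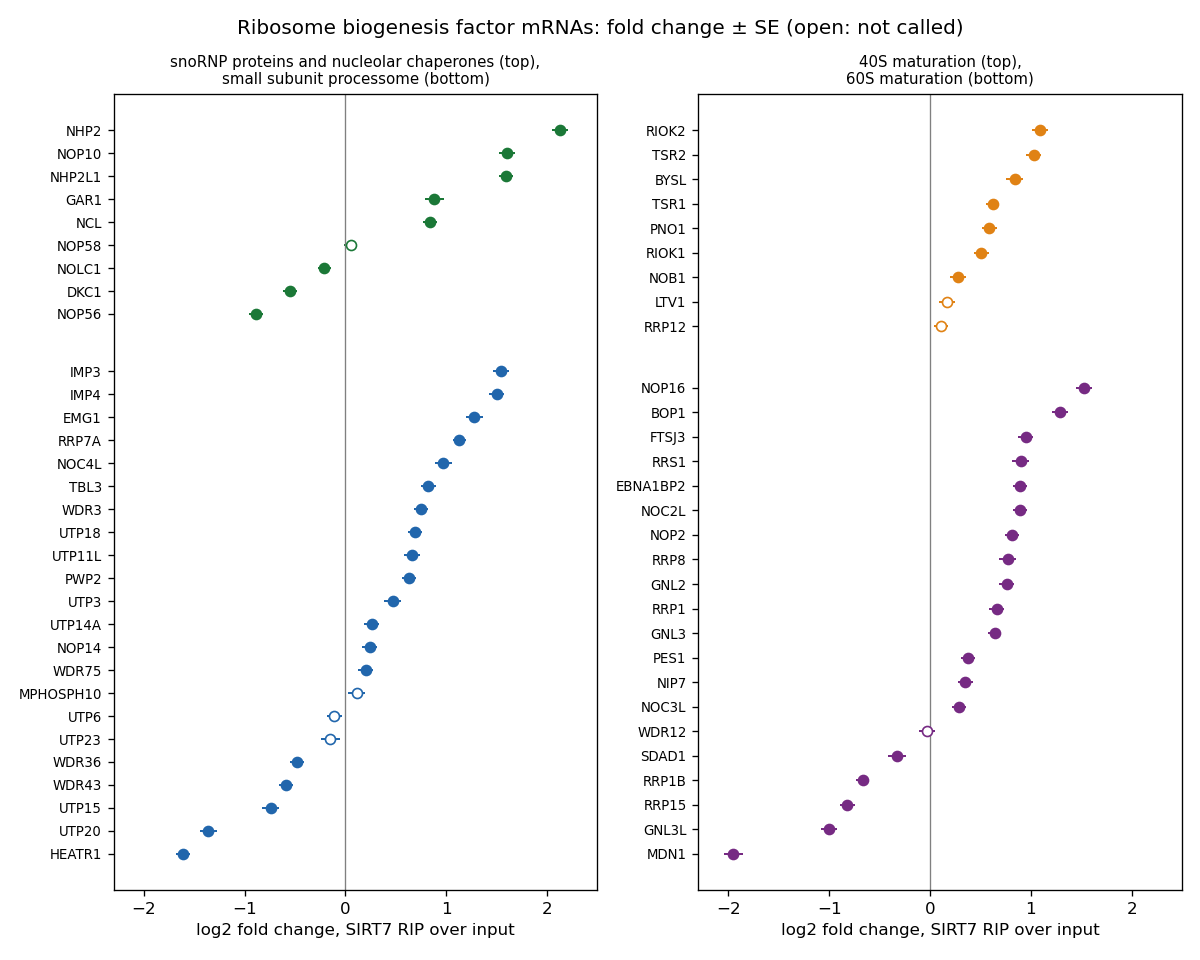
Log2 fold change of RIP over input (x axis) for each of the 60 members by role, with the standard error as a bar and open symbols for the 7 members that were not called. On this TMM scale all 9 genes of 40S maturation lie above 0 (6 of them lie below 0 with library totals), while the other roles hold members on both sides, from NHP2 at 2.13 to MDN1 at -1.95.

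Promoters of the members are shown for 1 feature, the E-box CACGTG that MYC and MAX are known to bind, since ribosome biogenesis genes are textbook targets of MYC. RefSeq windows (build GRCh38.p14) were matched for 51 of 60 members, and the 250 bases before a start site were searched. The motif reads the same on both strands. It was found for 8 of 51 members, 15.7%, against 11.2% of 11294 tested genes (a gene with several start sites counts once). The share was 9.73% of 15843 protein-coding genes and 7.73% of all 27305 genes with a window. Of 70 further ribosome biogenesis genes, described further on, 58 had a window and 8 of these the motif, 13.8%. By outcome it was found for 5 of 37 members that rose and 3 of 11 that fell. Among members with the motif, NOP10 and IMP4 had the highest and MDN1 and UTP20 the lowest fold changes. Their 250 bases are given 5′ to 3′ in the direction of the gene, ending at the base before the start site, with the motif in capitals. The windows are chr15:34343137-34343386 on the minus strand for NOP10, chr2:130342647-130342896 on the plus strand for IMP4, chr12:101279855-101280104 on the plus strand for UTP20 and chr6:89819795-89820044 on the minus strand for MDN1.
NOP10: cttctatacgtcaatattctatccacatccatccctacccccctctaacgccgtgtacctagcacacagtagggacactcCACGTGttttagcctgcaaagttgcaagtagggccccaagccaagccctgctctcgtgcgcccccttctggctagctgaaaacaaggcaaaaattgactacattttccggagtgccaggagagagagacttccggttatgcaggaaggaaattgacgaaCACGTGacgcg
IMP4: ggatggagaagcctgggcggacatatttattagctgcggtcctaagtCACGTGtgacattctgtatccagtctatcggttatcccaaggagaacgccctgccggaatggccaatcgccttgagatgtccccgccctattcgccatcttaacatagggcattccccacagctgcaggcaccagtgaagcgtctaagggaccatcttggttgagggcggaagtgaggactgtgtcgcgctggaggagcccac
UTP20: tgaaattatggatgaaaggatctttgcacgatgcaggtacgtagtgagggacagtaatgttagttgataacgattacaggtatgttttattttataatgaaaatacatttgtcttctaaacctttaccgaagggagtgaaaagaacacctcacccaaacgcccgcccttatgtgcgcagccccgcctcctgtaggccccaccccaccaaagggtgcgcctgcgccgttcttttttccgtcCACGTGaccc
MDN1: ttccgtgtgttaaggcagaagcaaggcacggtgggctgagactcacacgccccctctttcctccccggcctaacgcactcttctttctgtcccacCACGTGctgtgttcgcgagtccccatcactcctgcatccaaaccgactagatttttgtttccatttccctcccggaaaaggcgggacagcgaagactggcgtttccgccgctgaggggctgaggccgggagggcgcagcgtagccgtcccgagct

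The motif begins 170 and 11 bases before the start of NOP10, 203 before IMP4, 10 before UTP20 and 155 before MDN1. IMP4 has a further RefSeq window in which the motif was not found. A copy close to the start thus stood in front of an mRNA that rose (NOP10) and of one that fell (UTP20). The match is a description of these letters only.

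The snoRNP proteins and nucleolar chaperones held both the largest rise of all members and several falls: 5 of 9 rose and 3 fell (3 and 4 with library totals), with a median of 0.84. The H/ACA snoRNP places pseudouridines in rRNA, and its 4 proteins did not move as a unit. NHP2, which binds the guide RNA, had 983.5 and 1020 CPM in RIP against 214 and 242.8 CPM in input, 4.39-fold higher (2.13 on the log2 scale with SE 0.077, edgeR adjusted p = 2.289e-12). NOP10, the smallest protein of the complex, had 163.3 and 173.2 CPM in RIP and 52.11 and 58.61 CPM in input (3.04-fold, SE 0.078 on the log2 scale, edgeR adjusted p = 3.484e-11). GAR1 was at 36.15 and 35.26 CPM in RIP against 18.36 and 20.44 CPM in input, 1.84-fold higher (edgeR adjusted p = 3.115e-07), a call that was lost with library totals (0.15, adjusted p = 0.1415). In contrast to these 3, the mRNA of the pseudouridine synthase itself, DKC1 (dyskerin), was lower in RIP. It had 119.1 and 121.2 CPM in RIP against 181 and 171.8 CPM in input (-0.55 on the log2 scale, SE 0.069, edgeR adjusted p = 2.088e-06). With the length trend taken out only NHP2 stayed higher (0.78). NOP10 (-0.26) and DKC1 (-0.72) were then lower and GAR1 was not called (-0.16).

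The box C/D snoRNP, which guides methylation of the ribose, showed a like split. NHP2L1 (now SNU13), which binds the kink of the guide RNA and is also a part of the spliceosome, had 322.9 and 330.9 CPM in RIP and 107.5 and 109.2 CPM in input. It rose 3.02-fold (SE 0.068 on the log2 scale, edgeR adjusted p = 9.928e-12). The mRNAs of its scaffold partners did not follow. NOP58 was at 157.7 and 162.3 CPM in RIP against 155.7 and 152.7 CPM in input (log2 fold change 0.05, SE 0.067, edgeR adjusted p = 0.4792). NOP56 had 140.1 and 138.8 CPM in RIP and 259.7 and 257.9 CPM in input (log2 fold change -0.89, SE 0.067, edgeR adjusted p = 5.629e-09). Within this complex 1 mRNA thus rose, 1 fell and NOP58 passed neither side.

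NCL (nucleolin), an abundant nucleolar RNA-binding protein, had 1521 and 1434 CPM in RIP against 862.5 and 790.4 CPM in input, a 1.79-fold rise (edgeR adjusted p = 2.777e-08) that was not called with library totals (log2 fold change 0.11, adjusted p = 0.1584). NOLC1, a chaperone of snoRNPs, was at 228.2 and 226.9 CPM in RIP and 269.5 and 257.4 CPM in input (log2 fold change -0.21, edgeR adjusted p = 0.009504). That call was lost without the first RIP library (adjusted p = 0.1155) and without the second (0.1318). Per length, NHP2 and NCL were the most abundant members of this role, at 1416 and 1467 FPKM in RIP against 301.4 and 348.5 FPKM in input for NHP2, and at 565.7 and 532.3 FPKM in RIP against 313.7 and 292.8 FPKM in input for NCL.

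Several of these genes carry snoRNAs in their introns. Of the 6 members listed as hosts (NCL, NOP56, NOP58, DKC1, GNL3 and WDR43), 2 rose, 3 fell and NOP58 passed neither side. Their median was -0.25, and over all tested genes 38.0% were higher and 39.7% lower. With library totals 0 hosts were higher and 4 lower (median -0.98), beside 17.0% and 65.5% of all tested genes. With the length trend taken out 2 hosts were higher and 4 lower, beside 33.6% and 34.6%. In RefSeq, TSR1, which rose 1.54-fold, and UTP20 also span snoRNA genes. The table had rows for 20 snoRNAs that lie within 7 members, and all 20 were listed at 0 in each library, so nothing can be said here of the snoRNAs that these introns release.

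**Figure D2:**
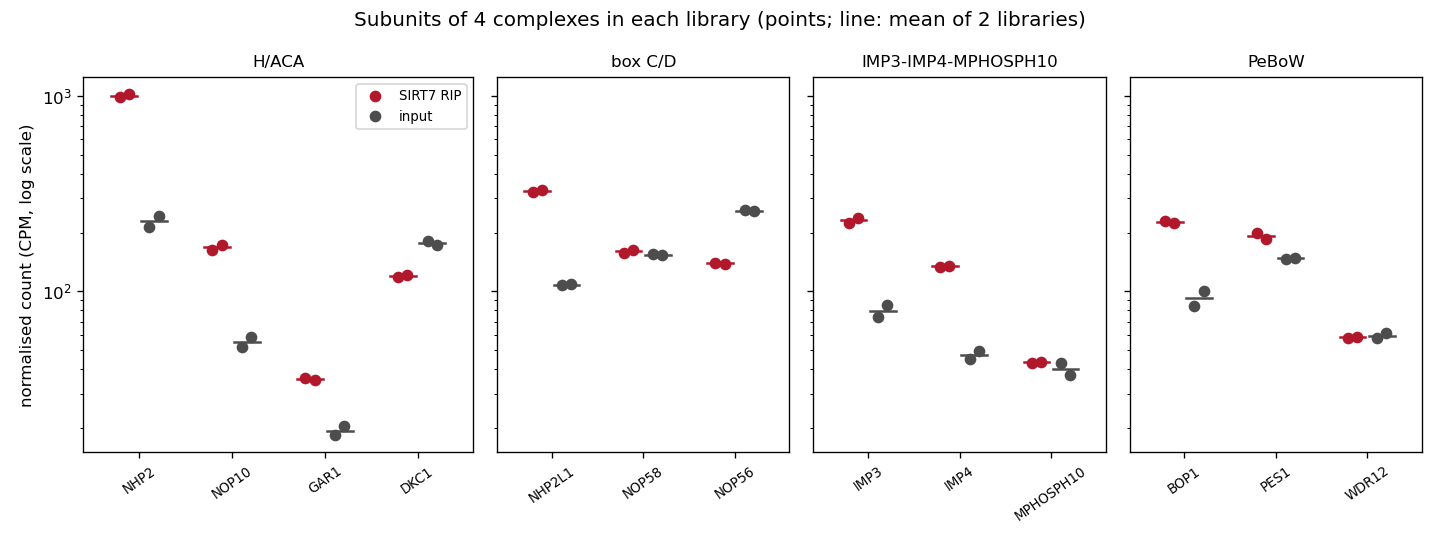
Normalised counts (CPM, log axis) of the member mRNAs of 4 complexes, with a point for each library, RIP in red and input in grey, and a line at the mean of 2 libraries. FBL of the box C/D snoRNP is not a member and is not drawn. In the H/ACA and box C/D panels NHP2, NOP10, GAR1 and NHP2L1 have their RIP points above their input points, while DKC1 and NOP56 have them below.

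Among 22 genes of the small subunit processome 14 rose and 5 fell (5 and 12 with library totals), and the median was 0.37. IMP3, IMP4 and MPHOSPH10 code for 3 proteins that act as a complex with the U3 snoRNA. IMP3 had 223 and 238.2 CPM in RIP and 73.88 and 84.79 CPM in input (2.91-fold, SE 0.079 on the log2 scale, edgeR adjusted p = 6.796e-11), and it was also the most abundant processome mRNA per length. IMP4 had 133.2 and 135.3 CPM in RIP against 45.18 and 49.74 CPM in input, 2.83-fold higher (SE 0.075 on the log2 scale, edgeR adjusted p = 4.945e-11). MPHOSPH10, the scaffold of the complex, was nearly level, with 43.17 and 43.69 CPM in RIP and 43.1 and 37.35 CPM in input (log2 fold change 0.11, SE 0.088, edgeR adjusted p = 0.2642). MPHOSPH10 passed the test once the first input library was left out (0.21, adjusted p = 0.03981). EMG1, a methyltransferase of the small subunit rRNA, rose 2.43-fold, at 96.34 and 96.94 CPM in RIP and 37.32 and 42.24 CPM in input, and with the length trend taken out it was not called (0.17, adjusted p = 0.064).

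HEATR1, UTP20 and UTP15 had the lowest fold changes of the processome genes. HEATR1, a processome protein also tied to rDNA transcription, had 99.8 and 104.3 CPM in RIP against 311 and 311.3 CPM in input (log2 fold change -1.61, SE 0.069, edgeR adjusted p = 1.019e-11). UTP20 had 37.75 and 34.22 CPM in RIP and 95.13 and 89.13 CPM in input (log2 fold change -1.36, SE 0.081, edgeR adjusted p = 3.572e-10). UTP15 was at 26.56 and 25.64 CPM in RIP against 43.27 and 43.96 CPM in input (log2 fold change -0.74, SE 0.084, edgeR adjusted p = 7.542e-07). For these 3 genes the 2 RIP libraries lay well below both input libraries.

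The members were then sorted by the subcomplexes known from yeast and human processomes. This grouping was made after the values were seen and so is given with no test. The UTP-A genes among the 60 lay low and the UTP-B genes high. Of the 4 UTP-A members HEATR1, UTP15 and WDR43 (log2 fold change -0.59) fell and WDR75 rose (0.20), with a median of -0.66. WDR75 lost its call without the first RIP library (adjusted p = 0.21) and without the first input library (0.1034). Of the 6 UTP-B members TBL3 (0.82), WDR3 (0.75), UTP18 (0.69) and PWP2 (0.63) rose, WDR36 fell (-0.48) and UTP6 passed neither side (-0.11, edgeR adjusted p = 0.1831), with a median of 0.66. Over all tested genes 38.0% were higher and 39.7% lower. With library totals all 4 UTP-A members fell, and UTP-B had none higher and 2 lower, beside 17.0% and 65.5% of all tested genes. NOL11 (0.69) and CIRH1A (0.49), UTP-A genes outside the 60, both rose on the TMM scale. The remaining processome genes that rose were RRP7A (1.13), NOC4L (0.97), UTP11L (now UTP11, 0.66), UTP3 (0.47), UTP14A (0.26) and NOP14 (0.24), all on the log2 scale. NOP14 was not called without the second RIP library (adjusted p = 0.1549). UTP23, which acts in release of a snoRNA from the precursor in yeast, was at -0.15 (edgeR adjusted p = 0.152).

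None of the 9 genes of 40S maturation fell on the TMM scale, and 7 rose (2 rose and 4 fell with library totals), with a median of 0.59. Over all tested genes 38.0% were higher and 39.7% lower on that scale. With the length trend taken out 5 of the role were higher, and NOB1 (-0.30) and LTV1 (-0.39) were lower. This is beside 33.6% and 34.6% of all tested genes. RIOK2, an atypical kinase of the late 40S precursor, had 71.64 and 74.18 CPM in RIP and 34.13 and 34.46 CPM in input, 2.13-fold higher (SE 0.077 on the log2 scale, edgeR adjusted p = 2.75e-09). TSR2, a chaperone of a ribosomal protein and in RIP the most abundant of this role per length, was at 81.18 and 81.18 CPM in RIP against 38.89 and 40.79 CPM in input (2.04-fold, edgeR adjusted p = 4.235e-09), and it was not called with the length trend taken out (0.13, adjusted p = 0.1305). BYSL had 45.13 and 49.14 CPM in RIP and 26.18 and 26.46 CPM in input (1.79-fold, edgeR adjusted p = 2.162e-07), and with library totals it was not called (0.11, adjusted p = 0.2431). These 3 had the largest rises of the role, and their RIP and input libraries were well apart. TSR1 (0.62), PNO1 (0.59) and RIOK1 (0.51) rose less on the log2 scale.

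The 3 lowest members of the role were close to their input levels. NOB1, the nuclease that makes the end of the mature small subunit rRNA, had 54.07 and 56.38 CPM in RIP against 47.18 and 44 CPM in input (log2 fold change 0.28, edgeR adjusted p = 0.004867). LTV1 was at 71.89 and 74.83 CPM in RIP and 69.5 and 61.28 CPM in input (0.17, edgeR adjusted p = 0.06904), and it passed once the first input library was left out (0.25, adjusted p = 0.00561). RRP12 had 67.52 and 68.03 CPM in RIP and 62.31 and 63.04 CPM in input (0.11, edgeR adjusted p = 0.1648). The partner of NOB1, PNO1, thus had a fold change of 1.5 beside 1.21 for NOB1 itself.

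The 20 genes of 60S maturation split into 14 that rose, 5 that fell and WDR12 (5 and 9 with library totals), with a median of 0.65. NOP16, a nucleolar protein of the early 60S precursor, had 86.6 and 84.84 CPM in RIP against 30.65 and 28.58 CPM in input (2.89-fold, SE 0.079 on the log2 scale, edgeR adjusted p = 6.468e-11). FTSJ3, an rRNA methyltransferase, was at 202.6 and 183 CPM in RIP and 101.2 and 98.09 CPM in input, a 1.93-fold rise (edgeR adjusted p = 7.598e-09). The PeBoW complex, needed for cutting the spacer before the large subunit rRNA, was uneven. BOP1 had 229.1 and 223.5 CPM in RIP against 84.5 and 100 CPM in input (2.45-fold, SE 0.081 on the log2 scale, edgeR adjusted p = 6.508e-10). PES1 was at 199 and 184.4 CPM in RIP and 146.4 and 148.4 CPM in input, 1.30-fold higher (edgeR adjusted p = 0.000131). WDR12 was at 58.08 and 58.27 CPM in RIP and 57.64 and 61.1 CPM in input (log2 fold change -0.03, SE 0.075, edgeR adjusted p = 0.732), with overlapping groups. With library totals PES1 (-0.35) and WDR12 (-0.76) were both called lower, and BOP1 stayed higher (0.57). With the length trend taken out PES1 was not called (0.08), WDR12 was lower (-0.34) and BOP1 was higher (1.03).

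MDN1, a very large ATPase that strips factors from the 60S precursor, fell furthest of all members. It had 42.42 and 42.5 CPM in RIP against 183.4 and 145.2 CPM in input (log2 fold change -1.95, SE 0.098, edgeR adjusted p = 5.169e-11), with the input libraries apart from each other but both far above RIP. RRP15 was at 55.67 and 55.98 CPM in RIP and 96.02 and 100.9 CPM in input (log2 fold change -0.82, edgeR adjusted p = 4.014e-08). Of the related nucleolar GTPases, GNL3 (nucleostemin) and GNL2 rose and GNL3L fell, and with library totals they were at -0.09, 0.02 and -1.74. GNL3 was the most abundant mRNA of the role per length and had 464.9 and 459.7 CPM in RIP and 297.8 and 294.9 CPM in input (log2 fold change 0.64, SE 0.066, edgeR adjusted p = 2.508e-07). GNL3L had 86.7 and 83.31 CPM in RIP against 183.5 and 157.4 CPM in input (2.01-fold higher in input, SE 0.081 on the log2 scale, edgeR adjusted p = 1.267e-08). The paralogs RRP1 and RRP1B also parted, RRP1 at 0.66 (SE 0.071) and RRP1B at -0.67 (SE 0.068), or -0.07 and -1.40 with library totals. With the length trend taken out neither was called, RRP1 at 0.10 (adjusted p = 0.2265) and RRP1B at -0.02 (adjusted p = 0.7669).

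Of the other 60S genes, the assembly factors RRS1 (0.90), NOC2L (0.89) and EBNA1BP2 (0.89) and the rRNA methyltransferases NOP2 (0.81) and RRP8 (0.77) rose on the log2 scale. With library totals the calls of RRS1 (0.17, adjusted p = 0.06596), NOP2 (0.08, 0.3121) and RRP8 (0.04, 0.6904) were lost. With the length trend taken out those of RRP8 (0.17, adjusted p = 0.07814) and EBNA1BP2 (0.04, 0.6247) were lost. GNL2 (0.76), NIP7 (0.35) and NOC3L (0.29) rose too, and SDAD1 fell (-0.33, edgeR adjusted p = 0.00276). NOC2L and NOC3L, whose yeast counterparts act as a pair, both rose, by 1.86-fold and 1.22-fold, and were at 0.16 and -0.44 (log2) with library totals.

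The fold change went with the length of the mRNA, both over the members and over all genes. Effective length was taken from the table as scaled fragments over FPKM and is given relative to the median tested gene, so it is a property of the transcripts as the authors quantified them. Across the 60 members Spearman's rho between fold change and length was -0.64, and across all 14555 tested genes it was -0.60. These are correlations across genes of the same 4 libraries, given as descriptions. NHP2 was at 0.24 and NOP10 at 0.12 of the median length, whereas MDN1 was at 6.41, UTP20 at 3.28 and HEATR1 at 3.09. The paralogs named above also differ in length: RRP1 was at 0.60 and RRP1B at 1.82, and GNL3 was at 0.67 and GNL3L at 3.14.

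**Figure D3:**
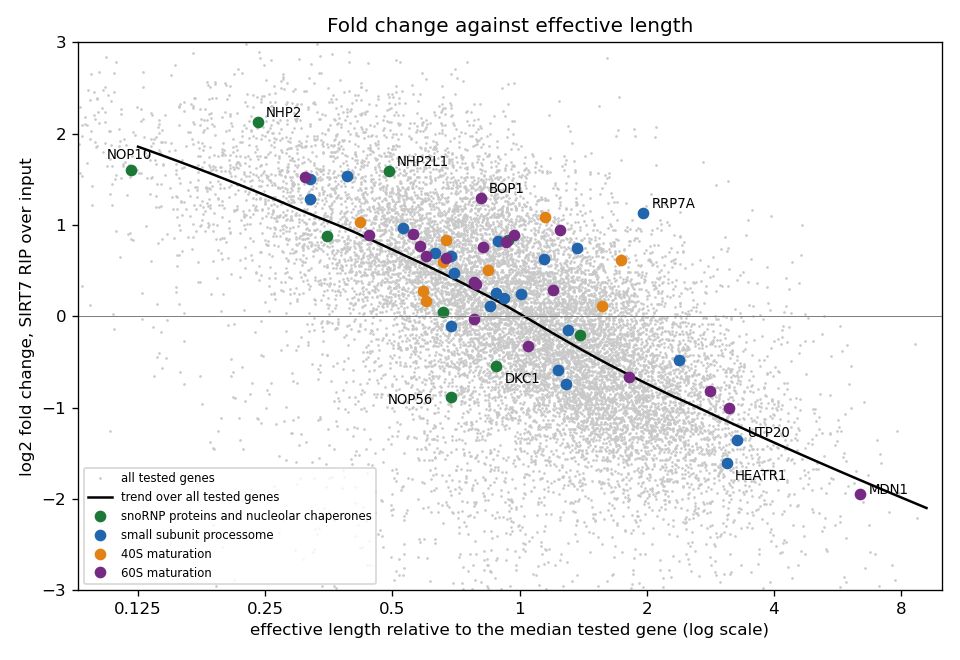
Log2 fold change of RIP over input (y axis) against effective length relative to the median tested gene (x axis, log scale), with the members in colour by role, all tested genes as small grey points and their trend as a line (grey points beyond the axes are not drawn). The members follow the falling trend from NHP2 at 2.13 to MDN1 at -1.95, with RRP7A and BOP1 above it and NOP56 and DKC1 below it.

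All tested genes were split by length into 4 classes of equal size, and in each class the member median lay above that of all its genes. In the shortest class 15 of 16 members rose and none fell, beside 2630 and 373 of all 3639 genes of that class, and the median was 1.0 beside 0.91. In the second class 17 of 23 rose and 2 fell, beside 1739 and 863 of 3639 genes, with a median of 0.51 beside 0.26. The third class had 6 of 11 higher and 4 lower, beside 864 and 1748 of 3638 genes, with a median of 0.24 beside -0.26. The longest had 2 of 10 higher and 7 lower, beside 298 and 2799 of 3639 genes, with a median of -0.74 beside -0.88. With library totals these 4 member medians were 0.27, -0.23, -0.49 and -1.47, beside 0.18, -0.47, -0.99 and -1.61 for all genes of the classes.

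With the length trend taken out of the fit, 29 members were higher and 12 lower, beside 33.6% and 34.6% of all tested genes, and the member median was 0.17 beside -0.03. By role this left 11 higher and 4 lower in the processome, 5 and 2 in 40S maturation, 10 and 2 in 60S maturation, and 3 and 4 among the snoRNP proteins and chaperones. The large falls of the longest mRNAs shrank: MDN1 was at -0.16 (edgeR adjusted p = 0.164) and UTP20 at -0.15 (adjusted p = 0.101), and HEATR1 stayed lower at -0.46 (adjusted p = 2.19e-05). NOP10 turned to -0.26 (adjusted p = 0.00789) and GAR1 to -0.16 (adjusted p = 0.13), while NHP2 stayed higher at 0.78 and NHP2L1 at 0.84. The trend was entered as fixed, so the p-values of this fit leave out the error of the trend itself.

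For some members the value lay as far from 0 or further after this step. NOP56, at 0.69 of the median length, was at -1.32 (edgeR adjusted p = 3.19e-10), DKC1 at -0.72 and NOP58 at -0.42. The box C/D scaffolds and dyskerin thus lay below the trend of RIP over input for mRNAs of their own length. Before this step NOP58 was not called against input (0.05). On the other side, RRP7A was at 1.85, RIOK2 at 1.23, TSR1 at 1.22, FTSJ3 at 1.19 and WDR3 at 1.09, all above their values before this step. BOP1 stayed higher at 1.03, below its 1.29 before. WDR36 and RRP15 turned from falls to 0.43 and 0.24. Of UTP-A, 3 of 4 were still lower and none higher, and of UTP-B 5 of 6 were higher and UTP6 was lower (-0.53). RRP7A is a gene with a related copy: RRP7B had a log2 fold change of -0.56 in the same table, and how the authors' counting split reads between the copies is not given, so the values of RRP7A are uncertain.

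**Figure D4:**
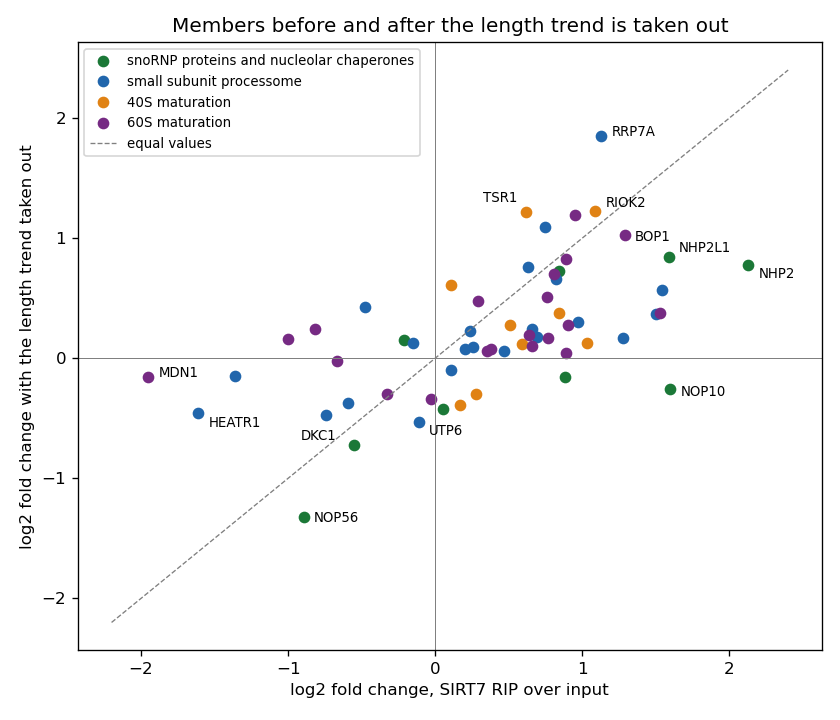
Log2 fold change of RIP over input for the 60 members as fitted (x axis) and with the length trend taken out (y axis), coloured by role, with a dashed line at equal values. MDN1, UTP20 and NOP10 move towards or across 0, while NOP56 and DKC1 move further below it and RRP7A further above it.

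The counting limits some single genes. In RefSeq, 17 of 60 members overlap another gene that has its own row, among them NHP2 with RMND5B, HEATR1 with LGALS8 and EMG1 with LPCAT3. The libraries keep strand, but the strand setting of the authors' counting is not given in the sources used here, so fragments in such overlaps are uncertain. In the same annotation 14 members have pseudogenes that bear their name, such as 8 for MPHOSPH10 and 3 for NOP56. All 240 member entries were whole numbers of fragments and had the status OK.

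A further 70 ribosome biogenesis genes outside the 60 were set beside them. Of these 45 rose and 16 fell, with a median of 0.45, beside 38.0% and 39.7% of all tested genes. With library totals 14 were higher and 44 lower, beside 17.0% and 65.5% of all tested genes. With the length trend taken out 33 were higher and 18 lower, with a median of 0.16, beside 33.6% and 34.6%. FBL (fibrillarin), the methyltransferase of the box C/D snoRNP, had 540.2 and 542 CPM in RIP against 166.6 and 143.9 CPM in input (log2 fold change 1.80, SE 0.078, edgeR adjusted p = 1.117e-11). With the length trend taken out FBL was at 0.78, beside 0.84 for NHP2L1, -0.42 for NOP58 and -1.32 for NOP56 of the same snoRNP. NPM1 (nucleophosmin), an abundant nucleolar chaperone, was at 2672 and 2569 CPM in RIP and 1877 and 1921 CPM in input (0.46, edgeR adjusted p = 1.076e-05), and it turned to -0.34 with the length trend taken out and to -0.27 with library totals.

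The highest of these 70 were GLTSCR2 (now NOP53, a factor of 60S maturation) at 2.13, FBL at 1.80 and TRMT112 (a partner of rRNA and tRNA methyltransferases) at 1.78. The lowest were NOL10 at -1.35, TCOF1 (treacle, a cofactor of RNA polymerase I) at -1.29 and URB2 at -1.09. GLTSCR2 had 452.4 and 415.9 CPM in RIP against 97.09 and 100.6 CPM in input. NOL10 had 24.2 and 24.65 CPM in RIP and 63.38 and 61.37 CPM in input, and it stayed lower with the length trend taken out (-1.14). TCOF1 was at 75.65 and 76.81 CPM in RIP and 196.4 and 177.1 CPM in input, and at -0.70 with the trend taken out. NOL11 (0.69) and CIRH1A (now UTP4, 0.49), which belong to UTP-A as well, both rose on the TMM scale. With library totals they were at -0.04 and -0.24, and with the length trend taken out at 0.46 and 0.17.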

How the data were processed

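RNA recovered with Flag-SIRT7 and total input RNA of the same HEK 293T line were measured in 2 libraries each. The tools were Cuffdiff 2.2.1, TopHat2 2.0.13, cutadapt 1.5 and Bowtie2 2.2.6, with build hg19, per the submitters' processing notes; the annotation is not given in the sources used here. The authors' expected counts are fragment numbers that Cuffdiff estimated (97.94% whole), the deposited scaled signal divides them by 1 factor per library, and the deposited FPKM values are per transcript length and library size. The file numbers replicates from 0, the labels from 1, and that order was taken as the match.

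Expected counts were rounded, filtered with filterByExpr (minimum count 10, total 15), scaled by TMM and tested with edgeR 4.0.16 (glmQLFit, glmQLFTest, R 4.3.3), a script tested on simulated data. The standard error is the log2 fold change over the square root of F. TMM factors were 0.7767 and 0.7759 in RIP and 1.298 and 1.278 in input. The length trend was a loess of log2 fold change on log2 effective length (span 0.5), fitted to the same fold changes and entered as fixed offsets. Alternatives were library totals, DESeq2 1.42.0, no filter, the replicate number as a block, limma 3.58.1 on log2(FPKM + 1) and log2(FPKM + 0.1), leaving out the 10 most abundant genes, and leaving out each library. Libraries of 1 group were not copies of each other, with a chi-square per gene of 3.4 between the RIP and 6.17 between the input libraries. Without molecular identifiers, depth covers counting error only.

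The members, the roles, the 70 further genes and the markers were chosen with earlier results of these data known. Within each role, values per library are given for the 3 highest, the 3 lowest and the most abundant member per length, and for 4 complexes. Gene names in RefSeq were matched for all 60 members, 2 of them under a newer symbol.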

Additional observations from a re-analysis of the deposited data

How the results depend on the processing

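DESeq2, no count filter, log2(FPKM + 1), and leaving out the 10 most abundant genes kept the direction and the call of all 60 members where run, and log2(FPKM + 0.1) changed only the call of LTV1. Leaving out 1 library gave 39 to 41 members higher, 12 to 13 lower and a median of 0.5619 to 0.6297, and turned only WDR12, which ranged from -0.0764 to 0.0310, above 0 only without the second input library. Across genes, the difference between the 2 RIP libraries and that between the 2 input libraries had a correlation of 0.02. This cannot settle whether a RIP and an input library of the same replicate number share a source, which the labels do not say. With the replicate block 40 members were higher and 13 lower, with a median of 0.60 and no changed call among the members.

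With library totals 15 members were higher and 29 lower, with a median of -0.13, beside 2479 and 9539 of all genes, and 14 and 44 of the 70 further genes. The member median minus that of all genes was 0.63 with either scaling. A change of scaling shifts all genes nearly alike, so this difference could hardly change and is no check. With the length trend taken out it was 0.21. The 20 members whose sign turned were NOP58 (-0.68), UTP3 (-0.26), UTP11L (-0.0672), UTP14A (-0.47), UTP18 (-0.0374), WDR75 (-0.53), MPHOSPH10 (-0.62), NOP14 (-0.49), PWP2 (-0.10), NOB1 (-0.45), LTV1 (-0.57), TSR1 (-0.11), RIOK1 (-0.23), PNO1 (-0.15), RRP12 (-0.62), PES1 (-0.35), RRP1 (-0.0704), GNL3 (-0.0894), NIP7 (-0.38) and NOC3L (-0.44). Another 9 kept their sign and lost their call (NCL, GAR1, WDR3, TBL3, BYSL, RRP8, RRS1, GNL2 and NOP2), and 3 gained one (UTP6, UTP23 and WDR12).

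With the length trend taken out the median was 0.17 and the 11 members that turned were NOLC1 (0.15), NOP58 (-0.42), NOP10 (-0.26), GAR1 (-0.16), UTP23 (0.13), WDR36 (0.43), MPHOSPH10 (-0.10), NOB1 (-0.30), LTV1 (-0.39), RRP15 (0.24) and GNL3L (0.16). A further 14 kept their sign and lost their call (UTP3, UTP14A, UTP20, WDR75, EMG1, TSR2, PNO1, PES1, RRP1, RRP1B, RRP8, EBNA1BP2, NIP7 and MDN1), and 3 gained one (UTP6, RRP12 and WDR12). The cause of these changes was not tested beyond the alternatives' own construction. Depth limited no member: the fewest fragments were 432. With 2 libraries a group, an exact permutation test of a single value cannot go below p = 0.33, and the small standard errors rest on spread pooled over genes.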
